A study of Mus musculus with 6 samples.

Results

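The nuclear-encoded subunits of respiratory complexes II to V were followed in whole liver of male mice of 2 strains. Members were taken by gene symbol from the array's annotation: Sdha, Sdhb, Sdhc and Sdhd for complex II, Cyc1 and symbols beginning with Uqcr for complex III, symbols beginning with Cox4 to Cox8 for complex IV, and symbols beginning with Atp5 for complex V. This gave 47 of the 18193 genes measured, 4 in complex II, 9 in complex III, 17 in complex IV and 17 in complex V. Each gene was represented by 1 probe set, a group of short probes for the same transcript, namely the one with the highest mean among those annotated to that gene alone.

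The groups were 3 arrays of the strain C57BL/KS (BKS, titled wt on the arrays) and 3 of the strain NZO, the New Zealand Obese mouse. All were males of 18 weeks on chow, and no further treatment is given for either strain. The design text says that NZO mice had by then become obese and diabetic, with the metabolic syndrome, and calls the animals littermates without naming litters. The 2 strains differ at many loci, so no difference here can be tied to one allele, and the labels do not say that each array was a separate animal. If arrays shared an animal, the p-values measure only the spread between these samples. Values are log2 signals after RMA (background correction, quantile normalization and summary of each probe set), and each log2 fold change sets NZO against BKS, so that a negative value is a lower level in NZO.

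As background, complex II (succinate dehydrogenase) passes electrons from succinate to ubiquinone and is also an enzyme of the citric acid cycle. Complex III (the cytochrome bc1 complex) moves them from ubiquinol to cytochrome c and complex IV (cytochrome c oxidase) from cytochrome c to oxygen, and both help build the proton gradient that complex V (ATP synthase) uses to make ATP. The mitochondrial genome encodes a few core subunits of complexes III, IV and V. The nucleus encodes the rest, and hepatocytes, which are rich in mitochondria, express most of them at high levels. Several complex IV subunits have a second gene used mainly in muscle, lung or testis.

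No member differed between the strains past the test, limma's moderated test with Benjamini-Hochberg adjustment over all genes at 0.05. The count was 0 of 47 members, where 0.742% of all genes passed. An unadjusted p below 0.05 was found in 4 members, beside 2078 of all 18193 genes. Among the 1821 genes with a mean of at least 10 it was found in 250. The members nevertheless leaned one way: 41 had a negative log2 fold change and 6 a positive one, with a median of -0.25 and a range from -0.78 for Cox7a1 to 0.30 for Cox8c. The median over all genes was -0.03, with 55.1% below 0. Most members are bright, however, and the 1821 genes with a mean of at least 10 had a median of -0.32, with 83.4% below 0. The 39 members of that brightness had a median of -0.28, with 36 below 0. Bright genes in general thus leaned at least as far as the subunits did. In whole liver, fewer cells of a type and less RNA per cell cannot be told apart.

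The lean came mostly from 1 array. NZO replicate 1 was the lowest of the 6 arrays in 40 of 47 members, in all 39 bright members, and in 91% of all bright genes. Relative to the BKS mean, the median member lay at -0.15, 0.11 and 0.04 in BKS replicates 1 to 3 and at -0.87, -0.01 and 0.01 in NZO replicates 1 to 3. The same medians over all genes with a mean of at least 10 were -0.16, 0.08 and 0.09 in BKS and -0.99, 0.04 and -0.01 in NZO. NZO replicates 2 and 3 therefore lay among the BKS arrays, and the members followed the other bright genes on every array. Without NZO replicate 1 the members' median was -0.01, with 22 above 0 and 25 below, and without any other single array it lay between -0.44 and -0.20.

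BKS replicate 1 and NZO replicate 1 carry the number 1 in their titles, the only number that both strains share. The labels name no batch. Treating these 2 arrays as 1 array batch and the other 4 as another was an assumption. Batch means this split by title number throughout. The weights of the 2 arrays, estimated from how well each array fits its strain, were 0.53 and 0.26, against 0.75 to 2.30 on the other arrays. Between these 2 arrays alone the members' median difference was -0.73, with 44 of 47 below 0. Among the other 4 arrays, 2 of each strain, it was -0.04, with 19 above 0 and 28 below. RNA quality moved with strain as well. The 3' minus 5' signal of beta-actin, on the log2 scale, ran from 1.72 to 2.33 on BKS arrays and from 1.29 to 1.39 on NZO arrays, and that of Gapdh from 0.45 to 0.98 and from -0.04 to 0.14. The 18S ribosomal RNA control read 4.93, 11.92 and 9.47 in BKS replicates 1 to 3, against 5.11 to 6.14 in NZO, and so differed within BKS as well. The part of the batch and of RNA quality in the members' values was not tested. Normalizing the 6 arrays again moved the members' median to -0.02 by quantiles and to 0.02 by cyclic loess, where 27 members were above 0 and 20 below. By quantiles the median of all genes with a mean of at least 10 moved from -0.32 to -0.04. The 6 deposited columns thus did not share a common distribution before that step.

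**Figure D1:**
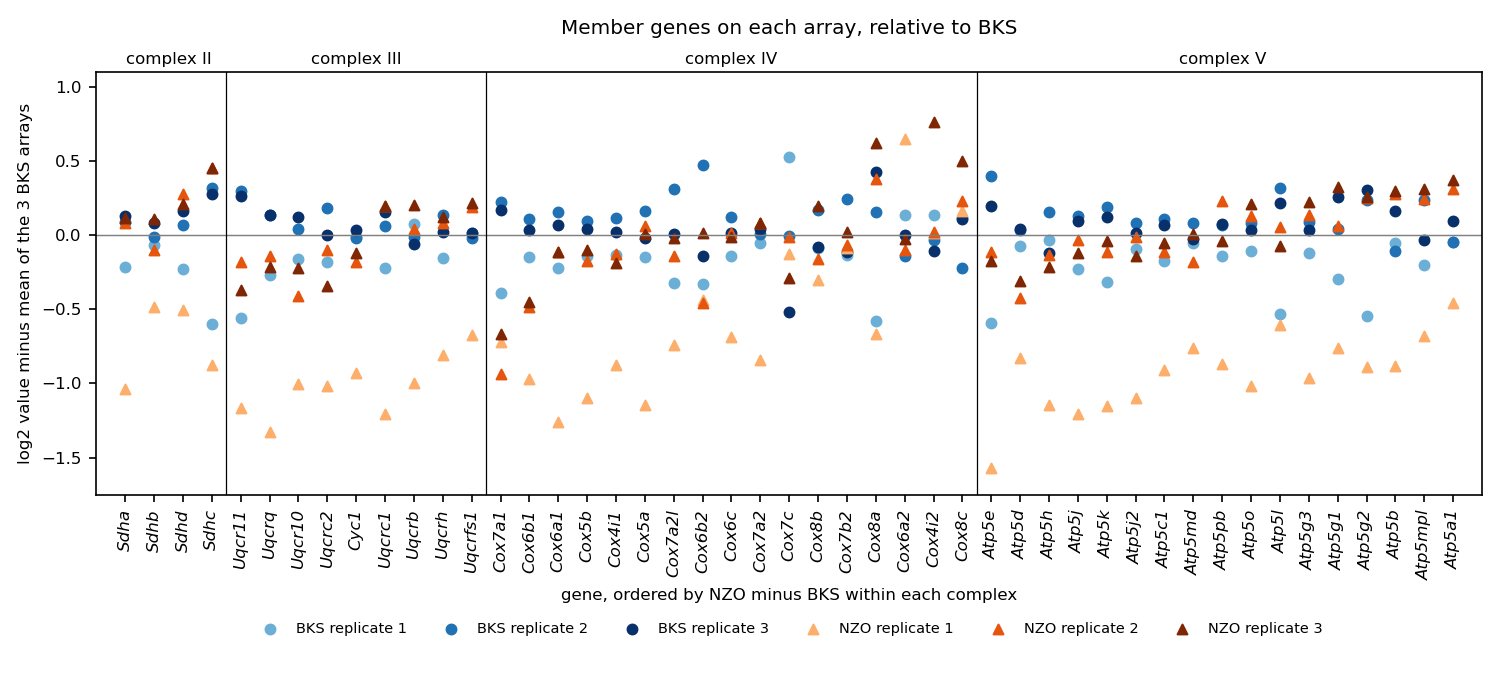
Log2 value of each of the 47 members on each of the 6 arrays, minus the mean of the 3 BKS arrays (y axis), with genes grouped by complex and ordered by fold change (x axis); circles are BKS and triangles NZO, 1 symbol per array. The lightest triangles, NZO replicate 1, lie lowest in 40 of 47 genes, while the other NZO arrays mix with BKS in most genes.

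**Figure D2:**
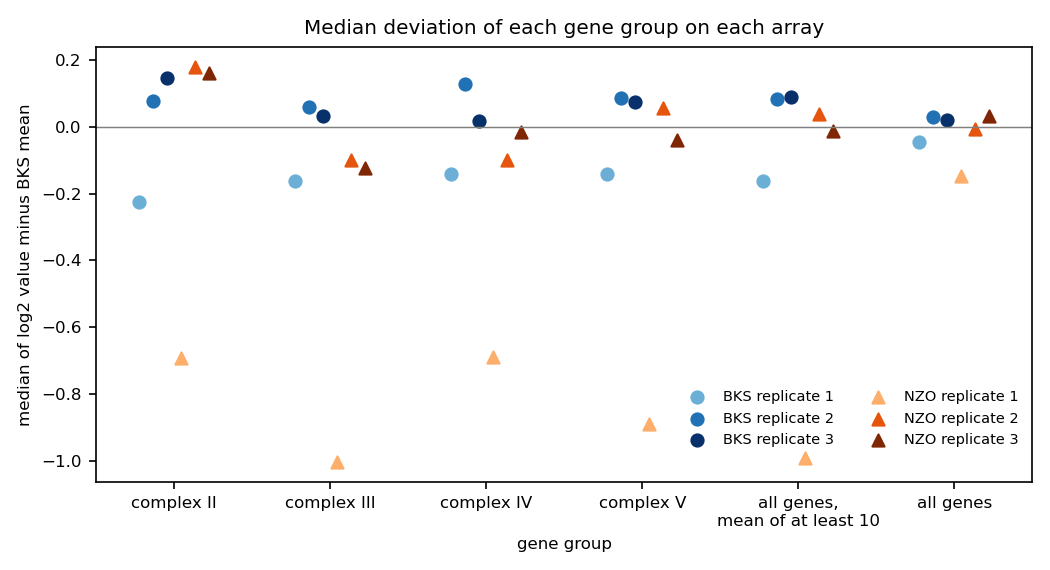
Median, over the genes of each group, of the log2 value minus the BKS mean (y axis), for the 4 complexes, for the 1821 genes with a mean of at least 10 and for all 18193 genes (x axis), with 1 symbol per array. NZO replicate 1 lies at -0.69, -1.002, -0.69 and -0.89 for complexes II, III, IV and V and at -0.99 for all bright genes.

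With the array batch as a block, 3 members were lower in NZO and none higher: Cox6b1, Uqcr11 and Cox7a1. That fit called 5.04% of all genes lower and 1.51% higher, so 3 of 47 is near the share among all genes. The block holds 1 array of each strain and leaves every fold change as it is, so it acts on the error only. Among the 2 against 2 arrays 1 member passed, Cox7a1, where 5.01% of all genes passed in either direction. In 6 members all 3 NZO arrays lay below all 3 BKS arrays (Uqcr10, Cyc1, Cox7a1, Cox6b1, Atp5d and Atp5h), or 12.8%, where the share among all genes was 10.9% and among bright genes 19.8%. In 1 member, Cox8c, all NZO arrays lay above all BKS arrays, as in 6.11% of all genes. By these counts the subunits did not stand out from the rest of the array.

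By complex, the median log2 fold change was -0.08 in complex II, -0.41 in complex III, -0.23 in complex IV and -0.23 in complex V. All 9 members of complex III were below 0, against 3 of 4 in complex II, 13 of 17 in complex IV and 16 of 17 in complex V. The differences between the complexes were not tested. Without NZO replicate 1 the medians were 0.17, -0.15, -0.06 and -0.01. After cyclic loess they were 0.27, -0.05, -0.02 and 0.13, so complexes II and V changed sign with the scaling and complexes III and IV kept theirs close to 0. Among the 2 against 2 arrays complex III stood at -0.16, with 4 of its genes above 0.

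**Figure D3:**
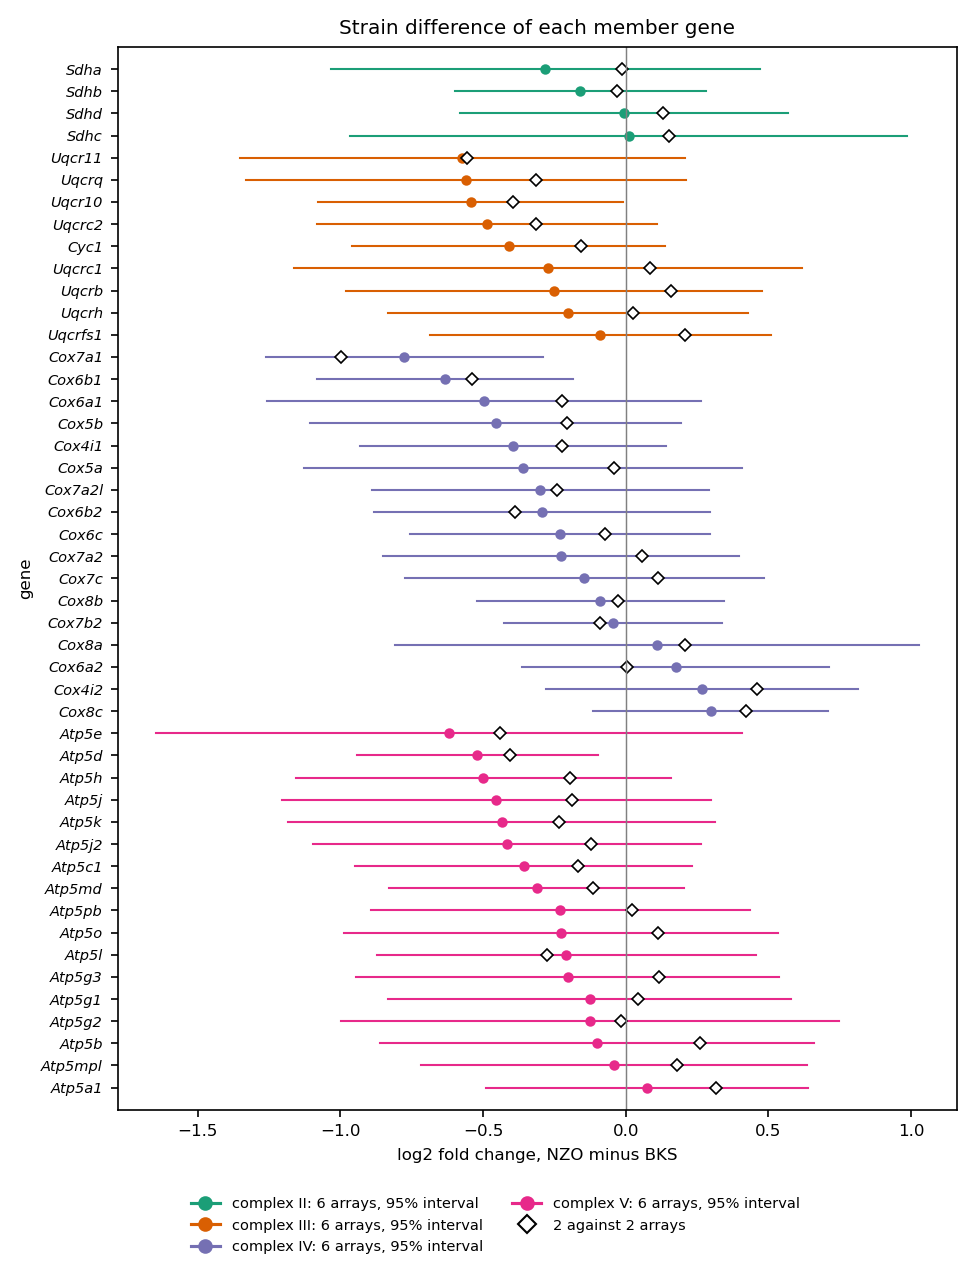
Log2 fold change, NZO minus BKS (x axis), of each member (y axis) over all 6 arrays with its 95% interval from limma (filled circles and lines, coloured by complex) and among the 2 against 2 arrays (open diamonds). The interval leaves out 0 for Uqcr10, Cox7a1, Cox6b1 and Atp5d only, and most diamonds lie closer to 0 than their circles.

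**Figure D4:**
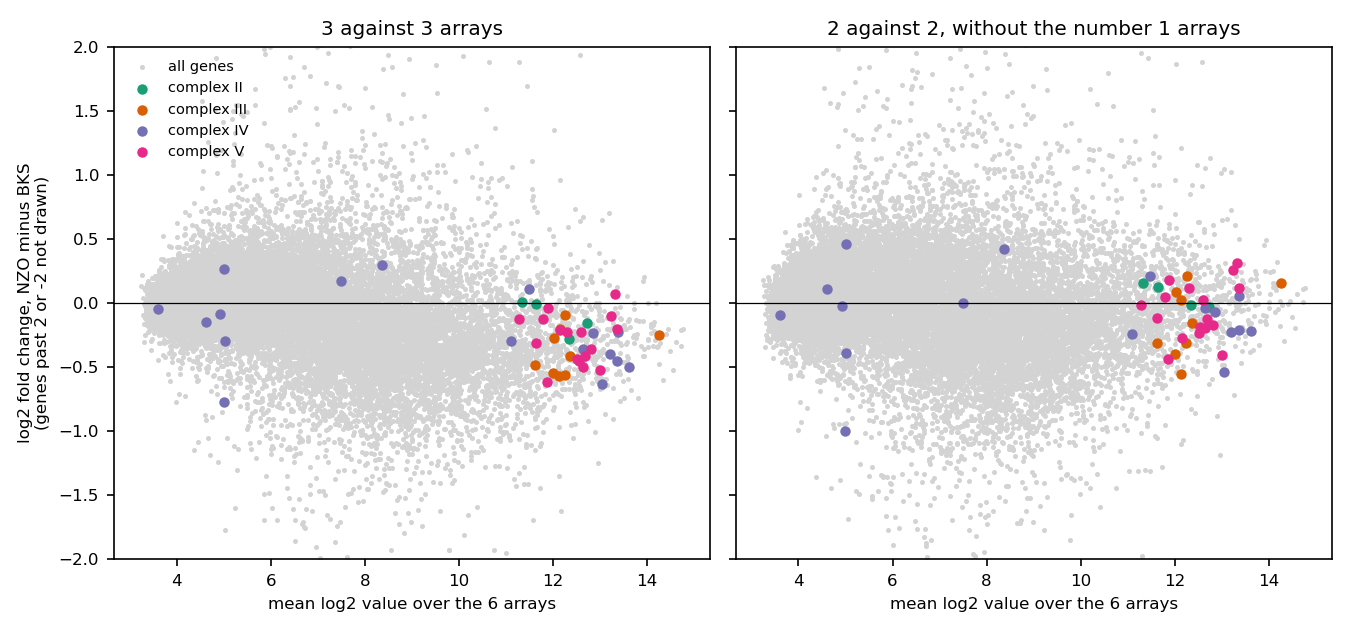
Log2 fold change (y axis) against the mean log2 value over the 6 arrays (x axis) for all genes (grey) and the members (coloured by complex), over 3 against 3 arrays on the left and 2 against 2 on the right. On the left the grey cloud bends below 0 at high values and the members follow it, and on the right both lie closer to 0; 83 and 98 genes past 2 or -2, none of them a member, are not drawn.

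In complex II none of the 4 members passed, none had an unadjusted p below 0.05, and all ranges overlapped. Sdha, the flavoprotein that oxidizes succinate, read 12.27, 12.57 and 12.61 in BKS and 11.44, 12.56 and 12.59 in NZO. Apart from NZO replicate 1 the arrays were alike, and the log2 fold change was -0.28 (standard error 0.32, adjusted p = 0.810) over all arrays and -0.01 among the 2 against 2 arrays. Sdhb, the iron-sulfur subunit, read 12.73, 12.79 and 12.88 in BKS and 12.32, 12.70 and 12.91 in NZO. Its ranges overlapped too (-0.16, standard error 0.19, adjusted p = 0.821). Of the membrane anchors, Sdhd read 11.41, 11.70 and 11.80 in BKS and 11.13, 11.92 and 11.85 in NZO, which is no shift in the mean (-0.01, standard error 0.25, adjusted p = 0.996), and Sdhc stood at 0.01. The 95% interval for Sdhd ran from -0.58 to 0.57, so a change of up to about that size could not be seen with these arrays.

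Among the members of complex III, Cyc1 and Uqcrfs1 carry electrons, and neither passed the test. Cyc1, cytochrome c1, read 12.56, 12.56 and 12.61 in BKS and 11.65, 12.40 and 12.45 in NZO. All 3 NZO arrays were lower, replicates 2 and 3 by little, and the log2 fold change was -0.41 (standard error 0.23, adjusted p = 0.576) and -0.16 among the 2 against 2 arrays. Uqcrfs1, the Rieske iron-sulfur protein, read 12.31, 12.28 and 12.31 in BKS and 11.62, 12.49 and 12.52 in NZO. Here NZO replicates 2 and 3 lay above BKS and replicate 1 below, which gave -0.09 (standard error 0.26, adjusted p = 0.939) over all arrays and 0.21 among the 2 against 2.

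The core proteins Uqcrc1 and Uqcrc2 hold the matrix side of complex III together. Uqcrc1 read 11.94, 12.22 and 12.32 in BKS and 10.95, 12.35 and 12.35 in NZO, with an overlap and a log2 fold change of -0.27 (standard error 0.38, adjusted p = 0.856). Uqcrc2 read 11.69, 12.05 and 11.87 in BKS and 10.85, 11.77 and 11.53 in NZO, with an overlap only through BKS replicate 1 (-0.49, standard error 0.26, adjusted p = 0.538). Its second probe set (1428631_a_at, mean 11.54) overlapped and gave 0.02 over all arrays and 0.14 among the 2 against 2 arrays, so it did not show that shift.

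The remaining members of complex III are small supernumerary subunits. Uqcr11 read 11.86, 12.72 and 12.68 in BKS and 11.25, 12.24 and 12.05 in NZO. Within each batch NZO was lower, by -0.61 between the number 1 arrays and -0.56 among the others, while the pooled ranges overlapped because BKS replicate 1 was low. Its log2 fold change was -0.57 (standard error 0.33, adjusted p = 0.582), and with the block the adjusted p was 0.0466. It was smaller when the arrays were quantile-normalized again (-0.29, adjusted p = 0.590) or put through cyclic loess (-0.22, adjusted p = 0.657). Uqcr10 read 12.11, 12.32 and 12.39 in BKS and 11.27, 11.86 and 12.05 in NZO, with all NZO arrays lower (-0.54, standard error 0.23, adjusted p = 0.429, and 0.0785 with the block). Uqcrq, Uqcrb and the hinge protein Uqcrh stood at -0.56, -0.25 and -0.20, all with overlap.

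The probe sets of Uqcr10 gave opposite answers. A second probe set annotated to it alone (1434340_at) read 5.83, 5.78 and 6.13 in BKS and 9.19, 10.25 and 10.52 in NZO. Every NZO array was far above every BKS array, and the difference was as plain in the number 1 arrays (3.36) as among the other 4 (4.43). The log2 fold change was 4.08 (standard error 0.34), or 16.9-fold higher in NZO, with adjusted p = 0.00656 over all 34945 probe sets with 1 symbol, of which 0.226% were higher in NZO past the test. With single arrays left out it lay between 3.81 and 4.48, and leaving out BKS replicate 2 (adjusted p = 0.0783) or BKS replicate 3 (adjusted p = 0.0501) lost the call. The BKS values lay close to the array medians of 5.08 to 5.22, so the size of the fold depends on low values.

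Another probe set of Uqcr10 (1434341_x_at, whose suffix marks probes shared with other transcripts) read 9.24, 9.37 and 9.37 in BKS and 9.92, 9.95 and 10.48 in NZO. It too was higher on every NZO array, by 0.79 (standard error 0.19, adjusted p = 0.180 over probe sets, and 0.0499 with the block). The brightest probe set, which stands for the gene here (1424364_a_at), was instead lower on every NZO array. The 3 probe sets thus differed by up to 4.62 in log2 fold change. Among 9010 genes with more than 1 probe set, 4 had a difference at least that large, Uqcr10 included. The data do not settle a strain difference in Uqcr10 RNA as a whole, and the cause of the disagreement was not tested.

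**Figure D5:**
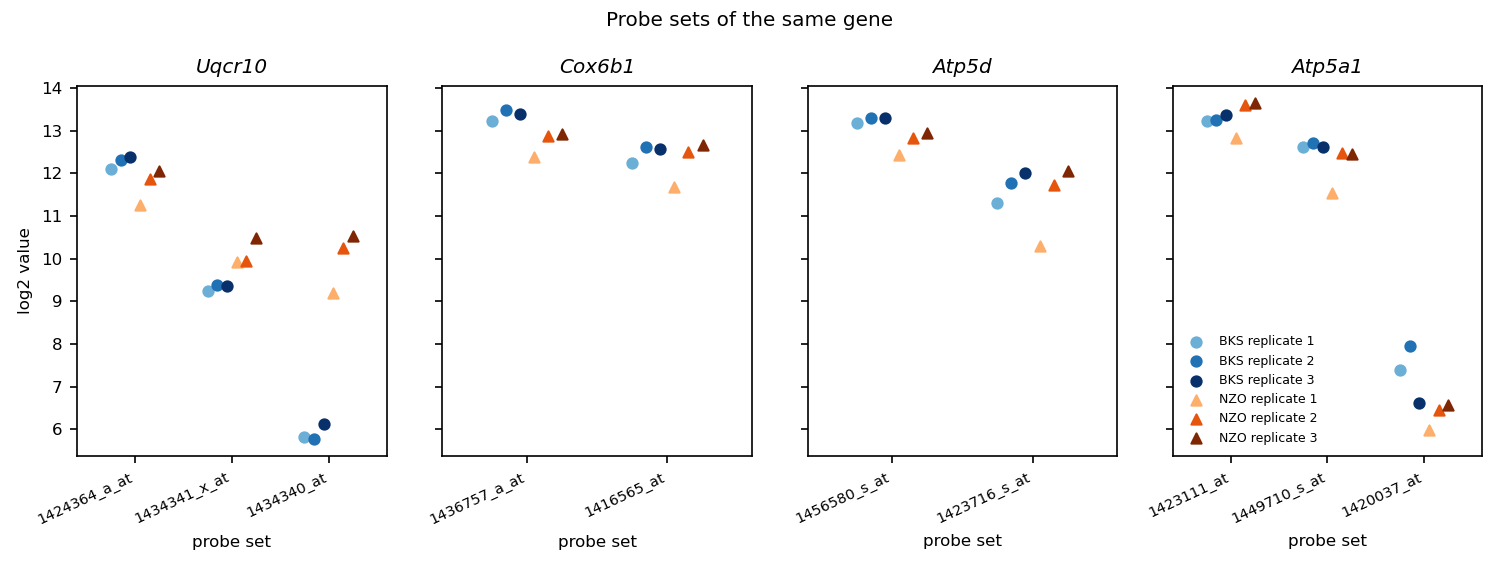
Log2 value (y axis) of every probe set annotated to Uqcr10, Cox6b1, Atp5d and Atp5a1 alone (x axis, 1 panel per gene), with 1 symbol per array, circles for BKS and triangles for NZO. For Uqcr10 the brightest probe set is lower and the other 2 higher in NZO; for Cox6b1 and Atp5d the strains separate in the brighter probe set only.

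In complex IV, Cox6b1, a small subunit on the side where cytochrome c docks, had the lowest value among the bright members. It read 13.22, 13.48 and 13.40 in BKS and 12.40, 12.88 and 12.92 in NZO. All NZO arrays lay below all BKS arrays, in the number 1 arrays by -0.83 and among the others by -0.54. The log2 fold change was -0.64 (standard error 0.19, adjusted p = 0.259), a 1.55-fold lower level in NZO, and the adjusted p with the block was 0.0359. A second probe set of Cox6b1 (1416565_at) read 12.24, 12.61 and 12.58 in BKS and 11.69, 12.49 and 12.68 in NZO. It overlapped, with -0.19 over all arrays and -0.01 among the 2 against 2 arrays, so it did not show the same difference. After repeated quantile normalization and cyclic loess the first probe set gave -0.36 (adjusted p = 0.336) and -0.26 (adjusted p = 0.637).

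Cox7a1, the heart and skeletal muscle form of subunit 7a, had the lowest value of all members, but near the bottom of the scale. It read 4.99, 5.61 and 5.55 in BKS and 4.66, 4.45 and 4.72 in NZO. Its ranges did not overlap, but BKS lay about the array medians and NZO below them, close to the floor of the scale. The log2 fold change was -0.78 (standard error 0.21, adjusted p = 0.193, and 0.0403 with the block), with -0.997 (adjusted p = 0.0193) in the 2 against 2 comparison and -0.33 for the arrays titled number 1. Markers of skeletal and heart muscle gave no sign of muscle tissue in either strain: all 8 measured, Acta1, Ckm and Myh4 among them, averaged below 6, and their list mean was 4.94 to 4.99 in BKS and 4.96 to 5.12 in NZO.

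Of the other tissue forms of complex IV, 4 were low as well. Cox4i2 (lung), Cox6b2 and Cox7b2 (testis) and Cox8b (muscle) averaged between 3.60 and 5.02, with overlapping ranges. Cox6a2 (muscle), with a mean of 7.49, and Cox8c, with 8.37, were above that range, and Cox6a2 overlapped between the strains. Cox8c was the only member with all NZO arrays above all BKS arrays, at 8.33, 7.99 and 8.33 in BKS and 8.38, 8.45 and 8.72 in NZO. That gap was narrow, and the log2 fold change of 0.30 (standard error 0.18, adjusted p = 0.589) did not pass. Second probe sets read lower, with a mean of 4.51 for Cox6a2 (1457633_x_at) and 5.78 for Cox8c (1443789_x_at). Both overlapped between the strains, so the level of these genes depends on the probe set. Cox7c, a subunit found in all tissues, averaged only 4.62 in its probe set, so its level cannot be read here. Cox7b had no probe set annotated to it alone and was not analysed here.

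The widely expressed subunits of complex IV gave the pattern of the bright genes. Cox4i1, a large early-assembling subunit, read 13.26, 13.52 and 13.42 in BKS and 12.53, 13.28 and 13.21 in NZO. NZO replicate 3 lay just below the lowest BKS array and NZO replicate 2 just above it (-0.40, standard error 0.23, adjusted p = 0.579). Cox5a, which joins the complex beside Cox4i1, read 12.66, 12.98 and 12.80 in BKS and 11.66, 12.87 and 12.82 in NZO. NZO replicates 2 and 3 lay within the BKS range, and the log2 fold change of -0.36 (standard error 0.33, adjusted p = 0.748) was -0.04 among the 2 against 2 arrays. Cox6a1, the form of subunit 6a outside muscle, read 13.65, 14.02 and 13.93 in BKS and 12.60, 13.76 and 13.75 in NZO. It overlapped in the same way (-0.50, standard error 0.32, adjusted p = 0.633).

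Cox7a2l is related to subunit 7a but serves to join complexes III and IV into supercomplexes. It read 10.93, 11.56 and 11.26 in BKS and 10.51, 11.11 and 11.23 in NZO. Its ranges overlapped (-0.30, standard error 0.25, adjusted p = 0.726), and cyclic loess put it at 0.02. Of the remaining bright members of complex IV, Cox5b stood at -0.46, Cox6c at -0.23, Cox7a2 at -0.23 and Cox8a at 0.11, all with overlap.

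Complex V has a catalytic head and a membrane rotor. The head subunits Atp5a1 (alpha) and Atp5b (beta) form the catalytic sites. Atp5a1 read 13.24, 13.24 and 13.38 in BKS and 12.83, 13.60 and 13.66 in NZO. Atp5b read 13.23, 13.18 and 13.45 in BKS and 12.41, 13.57 and 13.59 in NZO. In both genes NZO replicates 2 and 3 lay above every BKS array and NZO replicate 1 below every one. The log2 fold change was 0.07 for Atp5a1 (standard error 0.24, adjusted p = 0.947) and -0.10 for Atp5b (standard error 0.32, adjusted p = 0.944). Among the 2 against 2 arrays they stood at 0.32 and 0.26 (adjusted p = 0.316 and 0.439). The other probe sets of Atp5a1 went the other way, at -0.49 (1449710_s_at) and -0.99 (1420037_at, mean 6.83), with all NZO arrays below all BKS arrays in both and neither past the test over probe sets (adjusted p = 0.561 and 0.338).

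Atp5d, the delta subunit of the central stalk, read 13.18, 13.29 and 13.30 in BKS and 12.43, 12.83 and 12.94 in NZO. All NZO arrays were lower, in both batches, and the log2 fold change was -0.52 (standard error 0.18, adjusted p = 0.326, and 0.0738 with the block). Its second probe set (1423716_s_at) gave -0.33 with overlap and 0.002 among the 2 against 2 arrays. Atp5h, subunit d of the outer stalk, read 12.85, 13.04 and 12.77 in BKS and 11.74, 12.75 and 12.67 in NZO. NZO replicate 2 lay just under the lowest BKS array, and the log2 fold change was -0.50 (standard error 0.28, adjusted p = 0.572). Its second probe set (1423676_at, mean 12.07) overlapped, with -0.20 over all arrays and 0.09 among the 2 against 2 arrays. Atp5e, the epsilon subunit beside Atp5d, had the lowest value of complex V at -0.62, with a standard error of 0.44 and overlap.

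The ring of c subunits, which turns as protons pass, is built of 1 mature protein that 3 genes encode. Atp5g1 read 11.55, 11.89 and 12.11 in BKS and 11.09, 11.91 and 12.17 in NZO (-0.13, standard error 0.30, adjusted p = 0.926). Atp5g2 read 10.80, 11.58 and 11.65 in BKS and 10.45, 11.60 and 11.60 in NZO (-0.13, standard error 0.37, adjusted p = 0.941). Atp5g3 read 13.34, 13.55 and 13.50 in BKS and 12.50, 13.60 and 13.69 in NZO (-0.20, standard error 0.32, adjusted p = 0.870). In all 3 genes NZO replicate 1 was lowest and the other NZO arrays lay within or just above the BKS range.

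Atp5j2, subunit f in the membrane, read 12.80, 12.97 and 12.90 in BKS and 11.79, 12.88 and 12.75 in NZO, with overlap (-0.42, standard error 0.29, adjusted p = 0.654). The remaining members of complex V are the gamma subunit Atp5c1, the stalk subunits Atp5o, Atp5pb and Atp5j, and the membrane subunits Atp5k, Atp5l, Atp5md and Atp5mpl. They ran from -0.45 for Atp5j to -0.04 for Atp5mpl, all with overlap and none past the test in either fit.

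Probe sets matter for how firmly these values can be read. The members had 92 probe sets annotated to 1 member alone, and 29 members had more than 1. In 25 members the chosen probe set carried a suffix (_a_at, _s_at or _x_at) that marks probes shared between transcripts. For 8 members RefSeq names at least 1 pseudogene (Uqcrh, Cox5b, Cox6c, Cox7c, Atp5c1, Atp5k, Atp5pb and Atp5l), from which signal could not be told apart. Of the 45 probe sets not chosen, 25 had a mean of at least 10, and 17 of these lay within 0.2 of the chosen one's log2 fold change, while 3 had the opposite sign (in Atp5a1, Atp5pb and Uqcrc2).

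Promoters from RefSeq (GRCm38.p6) were searched because nuclear respiratory genes are known targets of a few shared factors. The table held 38 promoters of 35 members, each reaching from 250 bases before the transcription start to 50 after it. Searched on both strands, GCGCATGCG (NRF1) was found in 6 member promoters, or 15.8%, where 1.75% of all 32851 promoters held it. CCGGAAG (ETS factors, GABP among them) was found in 13, or 34.2%, against 8.86% of all. AAGATGGCG (YY1) and TCAAGGTCA (ERR) were found in 2 each, or 5.26%, against 1.4% and 0.423% of all, and 21 of the 38 held none of the 4. The letters describe the sequence and do not show that a factor binds.

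The windows below are the 200 bases before the start of the 3 genes lower in NZO with the block, beside Cox6a1, whose promoter holds both the NRF1 and the ETS letters. They are written 5′ to 3′ on the gene's strand, and capitals mark the letters searched. They lie at chr7:30626115-30626314 (minus strand) for Cox6b1, chr10:80406822-80407021 (minus) for Uqcr11, chr7:30183971-30184170 (plus) for Cox7a1 and chr5:115348959-115349158 (minus) for Cox6a1.
Cox6b1: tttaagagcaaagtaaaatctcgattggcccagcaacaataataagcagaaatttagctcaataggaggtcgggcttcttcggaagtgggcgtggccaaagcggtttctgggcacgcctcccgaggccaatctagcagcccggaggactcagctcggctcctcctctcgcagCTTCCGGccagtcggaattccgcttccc
Uqcr11: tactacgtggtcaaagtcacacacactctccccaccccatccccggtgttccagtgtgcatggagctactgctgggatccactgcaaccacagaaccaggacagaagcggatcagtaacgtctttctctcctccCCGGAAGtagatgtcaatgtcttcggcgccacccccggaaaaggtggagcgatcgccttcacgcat
Cox7a1: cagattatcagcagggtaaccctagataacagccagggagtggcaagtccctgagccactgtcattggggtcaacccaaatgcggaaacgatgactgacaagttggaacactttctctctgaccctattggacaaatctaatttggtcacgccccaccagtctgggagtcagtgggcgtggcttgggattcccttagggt
Cox6a1: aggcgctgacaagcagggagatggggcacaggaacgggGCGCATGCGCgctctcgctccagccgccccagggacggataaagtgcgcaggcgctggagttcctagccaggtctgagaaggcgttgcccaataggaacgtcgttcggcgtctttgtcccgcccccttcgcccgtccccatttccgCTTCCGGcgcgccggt
The ETS letters begin 28 bases before the start in Cox6b1 and 66 before it in Uqcr11. The NRF1 letters of Uqcr11 begin 5 bases before the start and run past it, so they are not whole in its window. In Cox6a1 the NRF1 letters begin 162 bases before the start and overlap their own copy on the other strand, and the ETS letters begin 16 bases before it. Cox7a1, the muscle form, holds none of the 4 in its window.

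Other genes that serve these complexes were read from 4 lists. Of 36 assembly factors of complexes II to V, 33 were measured and none passed (2 had an unadjusted p below 0.05), with a median of -0.26 and 25 below 0. With the block 1 was lower, where 5.04% of all genes were: the complex IV biogenesis factor Pet100. It read 9.91, 10.61 and 10.59 in BKS and 8.81, 9.92 and 9.41 in NZO (-0.99, standard error 0.32, adjusted p = 0.295, 0.0137 with the block and 0.0417 among the 2 against 2 arrays), lower in NZO within each batch. Its pooled ranges overlapped. With the block 1 was higher, where 1.51% of all genes were: Cox18, which inserts part of a core subunit of complex IV into the membrane. It read 8.73, 9.04 and 9.13 in BKS and 8.95, 10.16 and 10.13 in NZO. NZO was higher within each batch, by 0.23 and 1.06 (0.79 over all, standard error 0.34, adjusted p = 0.438, 0.0466 with the block and 0.0111 among the 2 against 2 arrays). The pooled ranges of Cox18 overlapped too.

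Of 21 genes for cytochrome c, ubiquinone synthesis and other partners of respiration, 1 is itself a member (Atp5md), and of the others 19 were measured and none passed (1 with an unadjusted p below 0.05, median -0.12). With the block 1 was lower, where 5.04% of all genes were: Higd1a, a small protein of the inner membrane that binds complex IV. It read 11.65, 12.21 and 12.09 in BKS and 10.36, 11.60 and 11.44 in NZO, without overlap (-0.85, standard error 0.34, adjusted p = 0.397, 0.0264 with the block and 0.0736 among the 2 against 2 arrays).

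Another list held 14 genes, all measured: regulators of nuclear respiratory genes and, with Tfam, Tfb1m, Tfb2m and Polrmt, genes for transcription of the mitochondrial genome. None passed, and 12 were below 0 (median -0.31). An unadjusted p below 0.05 was found in 4, beside 2078 of all 18193 genes. With the block 3 were lower, in a fit that called 5.04% of all genes lower, and the 3 NZO arrays lay below the 3 BKS arrays in each. The coactivator Pprc1 read 8.00, 7.56 and 7.49 in BKS and 7.12, 6.03 and 6.64 in NZO (-1.08, standard error 0.29, adjusted p = 0.1998, and 0.0143 with the block). The coactivator Ppargc1b read 7.95, 8.42 and 8.44 in BKS and 7.34, 7.79 and 7.28 in NZO (-0.80, standard error 0.22, adjusted p = 0.195, and 0.0321 with the block). Polrmt, the RNA polymerase of the mitochondrial genome, read 9.11, 9.46 and 9.46 in BKS and 8.34, 8.94 and 8.33 in NZO (-0.80, standard error 0.22, adjusted p = 0.1997, and 0.0357 with the block). With Tfb1m (-0.51), 4 of the 14 genes listed had all NZO arrays below all BKS arrays, or 28.6%, where the share among all genes was 10.9%. Nrf1 (-0.32), Gabpa (-0.06), Esrra (-0.04) and Yy1 (-0.54) overlapped between the strains. So did the coactivator Ppargc1a (-0.065) and the rest of the list. None of the 6 mitochondrially encoded subunits listed was measured under those symbols.

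Lists outside complexes II to V leaned the same way. The median log2 fold change was -0.39 over 44 complex I genes, -0.30 over 76 mitochondrial ribosomal proteins and -0.33 over 54 cytosolic ribosomal proteins. NZO replicate 1 was the lowest array in 86.4%, 82.9% and 81.5% of them, beside 85.1% of the members. Among the 2 against 2 arrays these medians were -0.18, -0.19 and -0.06. The lean was therefore found in ribosomal proteins too and was no property of complexes II to V alone.

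By its hepatocyte markers the tissue matched its label. The 6 hepatocyte markers measured, Alb, Ttr and Hnf4a among them, had a list mean of 13.97 to 14.02 in BKS and 13.08 to 14.11 in NZO, with the low value in NZO replicate 1. Among markers of 9 other cell types none passed limma's test over all arrays. With the block 2 of these 43 markers passed, both higher in NZO: Stab2 (adjusted p = 0.0345) and Pecam1 (adjusted p = 0.0297). That fit called 1.51% of all genes higher. Pecam1 averaged 4.685 over all arrays, near the bottom of the scale. Among the 2 against 2 arrays 6 of the 43 passed, all higher in NZO. That comparison called 363 of all 18193 genes higher and 549 lower. The 6 were Vsig4 (log2 fold change 1.96), Cd68 (1.17), Stab2 (1.05), Pecam1 (0.83), Lrat (0.71) and Dcn (1.27). In the stellate and fibroblast list that holds Lrat and Dcn, Col3a1 (-0.66), Reln (-0.42) and Pdgfrb (-0.07) lay below 0 without passing. Des and Col1a1 lay above 0 without passing. The hepatocyte marker Apob was higher as well (1.016). Between the number 1 arrays, Vsig4 (-0.67), Cd68 (-0.03), Dcn (-1.25) and Apob (-0.85) lay below 0. Stab2 (0.66), Pecam1 (0.45) and Lrat (0.26) lay above 0 there. Of the 6, Pecam1, Cd68 and Lrat averaged below 6 over all arrays. The adipocyte (3 measured, list mean 4.85 to 5.24) and neutrophil markers (3 measured, 4.98 to 5.88) lay low on all arrays. Cholangiocyte markers (4 measured) had list means of 5.925 to 6.03 in BKS and 5.93 to 6.49 in NZO. Among them, Epcam read 9.78 in NZO replicate 1 and 7.072 to 7.725 on the other arrays. Markers of T, B and NK cells (4 measured) had 5.65 to 5.71 in BKS and 5.57 to 5.99 in NZO. The red cell marker Alas2 read 9.57 to 10.465 in BKS and 9.96 to 10.975 in NZO. An unadjusted p below 0.05, given for the next 3 lists, was found in 2078 of all 18193 genes. Macrophage markers (7 measured, 1 with an unadjusted p below 0.05) had list means of 7.37 to 8.25 in BKS and 7.49 to 8.30 in NZO. Markers of the sinusoidal endothelium (6 measured, 2 with an unadjusted p below 0.05) had list means of 6.43 to 6.72 in BKS. In NZO they were 6.76 to 7.52, without overlap. Markers of stellate cells and fibroblasts (7 measured, 3 with an unadjusted p below 0.05) had 6.94 to 7.44 in BKS and 6.78 to 7.31 in NZO. Of those 3, over all arrays, Col3a1 (-1.17, without overlap) and Reln (-0.465) were lower in NZO and Lrat (0.56) higher. The part of these cells in the members' values was not tested.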

How the data were processed

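Liver RNA of 6 mouse samples was labelled and hybridized to 1 expression array each, 3 per strain. The authors deposited log2 signals. Per the submitters' processing notes they used RMA and Affymetrix Expression Console; versions are not given in the sources used here, and it is not stated which arrays were normalized together. There are no detection calls, and the number of arrays limits the precision. Of 45101 probe sets, 34945 had 1 gene symbol in the platform's annotation, 932 had several and 9211 were not listed; 64 control probe sets were left out. The highest-mean probe set stood for each of 18193 genes, 0 columns were left unused, and all 47 members matched RefSeq by gene ID.

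The comparison of strains used lmFit and eBayes of limma 3.58.1, run in R 4.3.3 (two-sided, no covariate, Benjamini-Hochberg over all genes, threshold 0.05), which was tested on simulated data. A separate fit over probe sets was adjusted over all 34945. Given on every array were the 3 members of each complex with the smallest p, members past either fit or without overlap, and a fixed list of catalytic, core and isoform genes (24 in all); of each pathway list, members past either fit. Further probe sets of Uqcr10, Uqcrc2, Cox6b1, Cox6a2, Cox8c, Atp5d, Atp5h and Atp5a1 were chosen after their values were seen. The members, lists and alternatives were chosen with earlier results of these data known; 9 letters of the NRF1 sequence and the limit to members with a mean of at least 10 were added after seeing the data. Plots were made with matplotlib 3.10.9 under Python 3.11.15.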

Additional observations from a re-analysis of the deposited data

How the results depend on the processing

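With 3 arrays per strain, a missed threshold does not show that the strains were alike. No paired analysis was possible because the strains share only number 1 in the array titles; the array batch stood in as a block. Genes past the test numbered 135 over all arrays, 912 among the 2 against 2 arrays, 436 with repeated quantile normalization, 429 with cyclic loess, 1192 with the block, 234 with an intensity trend, 1298 with array weights, and 27 (without BKS replicate 2) to 258 (without NZO replicate 1) with 1 array left out, with 28, 89 and 36 without BKS replicate 3, NZO replicate 2 and NZO replicate 3. Members past the test numbered 0 over all arrays and with any array left out, a filter on dim genes, either new normalization, robust eBayes or an intensity trend. They numbered 1 among the 2 against 2 arrays (Cox7a1), 1 with array weights (Cox7a1, -0.86), 3 with the block (Cox6b1, Uqcr11 and Cox7a1), and 1 of 38 without probe sets of a shared suffix (Uqcr10). The members' median ranged from -0.44 to -0.01 with 1 array left out.

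Among named members, these changed sign. With 2 against 2 arrays they were Sdhd (0.13), Uqcrc1 (0.085), Uqcrfs1 (0.21), Atp5g3 (0.12), Atp5g1 (0.044) and Atp5b (0.26). With repeated quantile normalization they were Sdhb (0.13), Sdhd (0.29), Uqcrc1 (0.00), Uqcrfs1 (0.20), Atp5g3 (0.057), Atp5g1 (0.16), Atp5g2 (0.16) and Atp5b (0.15). With cyclic loess they were Sdha (0.075), Sdhb (0.21), Sdhd (0.33), Uqcrc1 (0.076), Uqcrfs1 (0.27), Cox7a2l (0.019), Cox5a (0.005), Atp5g3 (0.18), Atp5g1 (0.22), Atp5g2 (0.20) and Atp5b (0.28). With array weights they were Sdhd (0.10), Uqcrc1 (0.015), Uqcrfs1 (0.14), Atp5g3 (0.065), Atp5g1 (0.087) and Atp5b (0.19). Without shared suffixes they were Uqcr10 (4.08) and Atp5g1 (0.10), each read from a different probe set. That of Atp5g1 (1444874_at) had a mean of only 3.57, against 11.79 for the chosen one. With 1 array left out the ranges that crossed 0 were Sdha -0.48 to 0.10, Sdhb -0.29 to 0.004, Sdhd -0.15 to 0.24, Uqcrc1 -0.51 to 0.19, Uqcrfs1 -0.24 to 0.20, Cox5a -0.57 to 0.035, Atp5g1 -0.35 to 0.19, Atp5g2 -0.40 to 0.26, Atp5g3 -0.42 to 0.18, Atp5b -0.30 to 0.29 and Atp5a1 -0.075 to 0.34. The cause of each change was not tested.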
